A study of Mus musculus with 6 samples.

Results

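The platelet-derived growth factor (PDGF) family was examined in the mouse aorta through its 4 ligand genes (Pdgfa, Pdgfb, Pdgfc and Pdgfd), its 2 receptor tyrosine kinase genes (Pdgfra and Pdgfrb) and the receptor-like gene Pdgfrl. These 7 genes were taken by symbol from the 55341 genes of the count table, and all 7 were among the 16017 genes with enough reads to be tested. RNA sequencing had been run on aortas of 3 miRNA-26b-/- mice (libraries M2626, M2627 and M2628) and 3 miRNA-26b+/+ mice (M2629, M2630 and M2631), all 8 weeks old and fed a chow diet. The strain label is C57BL/6NCrl, and the study's text gives C57BL/6 for the mice used and a mixture with 129/Sv for the founding strains. In the miRNA-26b-/- mice the Mir26b hairpin, which lies in an intron of Ctdsp1, had been floxed in R1/E (129/Sv) embryonic stem cells and deleted with tamoxifen through CreERT2, and the Cre gene had then been bred out. The controls are labelled naive and are wild type in the study's text, and whether they received tamoxifen is not given in the sources used here. The labels call the material endothelial cells of the aorta, whereas the methods describe explanted aortic arch and thoracic aorta. Smooth muscle markers led in every library, with a summed level of 32583 to 43607 CPM (read counts scaled to a common library size) against 487 to 1734 CPM for endothelial markers, so the libraries are treated here as whole aortic tissue.

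PDGF ligands are secreted dimers that bind receptor tyrosine kinases on neighbouring mesenchymal cells and drive their growth, survival and migration. In blood vessels, PDGF-B from endothelial cells acts on PDGFRβ of smooth muscle cells and pericytes and brings these mural cells to the vessel wall, whereas PDGFRα marks fibroblasts and is the main receptor of PDGF-A and PDGF-C. PDGF-C and PDGF-D are secreted in a latent form with a CUB domain that must be cut off before they can bind. PDGFRL is a receptor-like protein that lacks a kinase domain.

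MicroRNAs lower the level of transcripts that pair with their seed, bases 2 to 8 of the mature strand. The mature strands of the deleted hairpin are given with this seed in capitals, because they set which letters were looked for in the transcripts of the family. They are followed by relatives of the same miRNA family with the same seed, since these are encoded elsewhere in the genome and were not deleted. The sequences are those of RefSeq on GRCm38.p6.
miR-26b-5p (chr1:74394324-74394344, plus strand): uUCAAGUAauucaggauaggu
miR-26b-3p (chr1:74394360-74394381, plus strand): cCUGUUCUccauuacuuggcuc
miR-26a-5p (chr9:119031811-119031832 and chr10:126995543-126995564, plus strand): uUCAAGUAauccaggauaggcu
miR-26a-2-3p (chr10:126995581-126995602, plus strand): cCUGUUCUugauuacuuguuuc
Among 1738 mature mouse entries, miR-26a-5p was the only other with the seed of miR-26b-5p, while miR-26a-2-3p, miR-7039-3p and miR-6932-3p shared that of miR-26b-3p. The hairpin gene itself could not serve as a check of the genotype in these libraries, since Mir26b had 0 counts in 5 of them and 20 in M2630. The host gene Ctdsp1 had 5155, 6121 and 5127 counts in miRNA-26b-/- and 4549, 4553 and 5426 in miRNA-26b+/+ aortas.

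The longest annotated 3′ UTR of each PDGF gene was searched on the transcript strand for the letters that pair with these seeds. For miR-26b-5p these were TACTTGAA (8 letters), TACTTGA or ACTTGAA (7 letters) and ACTTGA (6 letters). For miR-26b-3p they were AGAACAGA, AGAACAG or GAACAGA, and GAACAG, and a longer match was not counted again as a shorter one. The sites of 7 or 8 letters are given below with their matched letters in capitals and 8 or 9 flanking bases on each side, on GRCm38 and all on the plus strand. Each range covers a window of 8 bases, so for a 7-letter match it holds 1 unmatched base.
Pdgfd, miR-26b-5p, chr9:6377312-6377319: aatgatatTACTTGAtattttgct
Pdgfra, miR-26b-5p, chr5:75197112-75197119: taacaaggTACTTGActacctact
Pdgfra, miR-26b-5p, chr5:75197240-75197247: gccaattagACTTGAActacatcc
Pdgfc, miR-26b-3p, chr3:81213634-81213641: ctacgaacAGAACAGAgcttgagt
In all, 2 PDGF genes held a 7-letter match of miR-26b-5p and 1 an 8-letter match of miR-26b-3p. The 8-letter match overlaps a further 7-letter match in the window chr3:81213629-81213636. Matches of 6 letters were found for miR-26b-5p in Pdgfc and Pdgfrb and for miR-26b-3p in Pdgfa, Pdgfb and Pdgfra. Pdgfrl, whose 3′ UTR of 282 bases is the shortest of the family, held none. Of 21020 genes with an annotated 3′ UTR (median length 961 bases), 18.3% held a 7- or 8-letter match of miR-26b-5p and 20.1% one of miR-26b-3p, and the other 6 PDGF genes have 3′ UTRs of 1203 to 3115 bases. A match is only a run of letters and not a measured binding site.

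The first question was which members of the family the aorta expresses and at what level. Levels of different genes were compared as TPM, which divides the counts by the gene length given in the count table and scales each library to the same total. Pdgfrb and Pdgfd were the most abundant, Pdgfa came next, Pdgfrl and Pdgfra formed a middle pair, and Pdgfc and Pdgfb were the lowest. The mean over the 6 libraries was 216 ± 16.6 TPM (SD, range 196 to 237) for Pdgfrb and 201 ± 22.7 TPM (181 to 239) for Pdgfd, which placed them at the percentiles 96 and 95.6 of all genes tested. Pdgfa had 91.2 ± 10.9 TPM (70.1 to 99.4). Pdgfrl had 47.1 ± 15.9 TPM (27.0 to 61.9) and Pdgfra 44.8 ± 13.8 TPM (30.1 to 69.4). Pdgfc had 19.2 ± 5.75 TPM (11.9 to 28.8) and Pdgfb 11.4 ± 3.45 TPM (6.19 to 15.2), near the percentiles 58.3 and 44.1.

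The ranges over the 6 libraries overlapped between Pdgfrb and Pdgfd, between Pdgfrl and Pdgfra, between Pdgfrl and Pdgfc, and between Pdgfc and Pdgfb. Within each library, however, Pdgfrl was above Pdgfc and Pdgfc above Pdgfb. Pdgfrb and Pdgfd changed order between libraries, and so did Pdgfrl and Pdgfra. The lowest Pdgfd value (181 TPM) lay well above the highest Pdgfa value (99.4 TPM). The lowest Pdgfa value (70.1 TPM) was barely above the highest Pdgfra value (69.4 TPM), and the lowest Pdgfra value (30.1 TPM) barely above the highest Pdgfc value (28.8 TPM). Within single libraries the order was steadier, with Pdgfa at rank 3, Pdgfc at rank 6 and Pdgfb at rank 7 in each, and Pdgfrb first in all but M2629, where Pdgfd led with 239 TPM. Among the ligands, Pdgfd made up 58.2% to 67.4% of the summed TPM in a library, Pdgfa 22.3% to 32.1%, Pdgfc 3.98% to 7.78% and Pdgfb 2.08% to 4.59%.

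**Figure D1:**
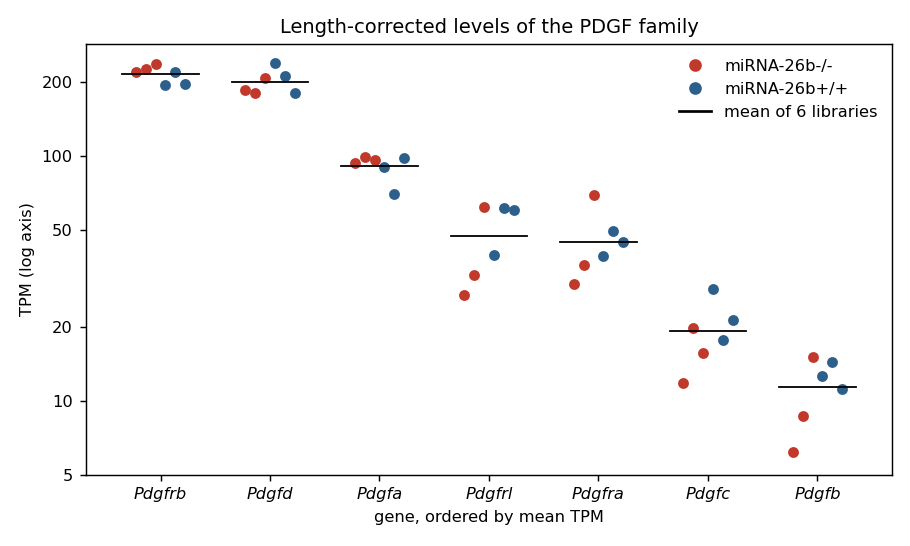
Length-corrected level of each PDGF gene in TPM on a log axis, with 1 point for each of the 3 miRNA-26b-/- (red) and 3 miRNA-26b+/+ (blue) aortas and a line at the mean of the 6. Pdgfrb and Pdgfd lie highest, with means of 216 and 201 TPM, and Pdgfc and Pdgfb lie lowest, with means of 19.2 and 11.4 TPM.

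The main question was whether loss of miRNA-26b changed any member of the family. No member passed the test: 0 of 7 had an unadjusted p under 0.05 and 0 of 7 an adjusted p under 0.05 in edgeR's quasi-likelihood test, and the counts were the same with DESeq2 and with limma voom. Across all genes tested, 6.47% had an unadjusted p under 0.05 and 0.00624%, a single gene, an adjusted p under 0.05. The ligand genes Pdgfb, Pdgfc and Pdgfd and the receptor-like Pdgfrl had lower means in miRNA-26b-/- aortas, while Pdgfa and both receptor kinases had higher ones, and the median log2 fold change of the 7 genes was -0.07 against 0.01 for all genes tested. The groups were free of overlap for Pdgfrb alone. The labels tie no library to a single named animal, so the p-values are those of the spread between these libraries. In whole tissue fewer cells of a type and less RNA per cell cannot be told apart.

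Pdgfa encodes the ligand PDGF-A, which smooth muscle cells make and which acts through PDGFRα. Its level was 97.5, 98.4 and 89.5 CPM in M2626, M2627 and M2628 and 84.1, 67.7 and 91.5 CPM in M2629, M2630 and M2631. Only the highest control, M2631, exceeded a knockout library, and M2630 was the lowest of all. The means were 95.1 ± 4.94 and 81.1 ± 12.2 CPM (SD, n = 3), with a log2 fold change of 0.23 (SE 0.171, 95% interval -0.14 to 0.59, adjusted p = 0.869). The gene lies at chr5:138976014-138997370 on the minus strand. It shares 813 exonic bases with 6330403L08Rik on the plus strand, a gene with 1075 to 1674 counts and up to 77.1% of the Pdgfa count in a library. Because reads had been counted without regard to strand, reads in the shared part cannot be assigned to either gene. The mean of 6330403L08Rik was 44.5 CPM in knockouts and 44.3 CPM in controls, a log2 fold change of 0.01 (SE 0.21).

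Pdgfb, which encodes the endothelial ligand that recruits mural cells, was the scarcest member. It had 8.60, 11.4 and 18.8 CPM in the knockout libraries and 15.8, 18.6 and 14.0 CPM in the controls. M2626 and M2627 were below all controls, whereas M2628 was the highest of the 6 libraries. The means were 12.9 ± 5.26 and 16.1 ± 2.31 CPM (SD, n = 3), a log2 fold change of -0.31 (SE 0.35, 95% interval -1.06 to 0.44, adjusted p = 0.932). It was -0.11 without M2626 and -0.66 without M2628, with unadjusted p of 0.762 and 0.0977 in edgeR. The gene is at chr15:79995874-80014977 on the minus strand.

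The summed endothelial markers divided the knockout libraries in the same way. The summed level of 8 endothelial genes was 487, 504 and 1734 CPM in M2626, M2627 and M2628 against 1223, 1667 and 1450 CPM in the controls. M2626 and M2627 were both below every control for 5 of the 8 genes (Pecam1, Vwf, Cdh5, Tek and Tie1), and for Egfl7, Esam and Kdr they were not. Without M2628, 5 of 8 genes had an unadjusted p under 0.05 and 3 an adjusted p under 0.05, all lower in the knockouts, against 10.8% and 0.524% of all genes in that fit. With any other library left out, 0 of 8 had an unadjusted p under 0.05 by the same edgeR test. With all libraries 1 of 8 (Tek) passed an unadjusted p of 0.05 by edgeR, with lower values in the knockouts. DESeq2 gave 0 and limma voom 3, all lower. The 2 most abundant were Pecam1, an endothelial junction protein, at 185, 175 and 716 CPM against 488, 631 and 593 CPM, and Vwf, von Willebrand factor, at 103, 107 and 604 CPM against 390, 602 and 522 CPM. As a share of this sum in TPM, a measure chosen after seeing the data, Pdgfb was 2.42%, 3.14% and 1.79% in the knockouts and 2.08%, 1.86% and 1.63% in the controls. The mean share was the higher one in the knockouts, but the groups overlapped and the log2 difference of 0.37 did not pass an exact permutation test (two-sided p = 0.3, the smallest possible with 3 against 3 being 0.1). It was 0.17 without M2627 and 0.58 without M2628. Platelets are another known source of PDGF-B. The 7 platelet markers summed to 35.5 to 49.2 CPM in knockouts and 33.9 to 35.2 CPM in controls, led by Gp1bb and Pf4, with Gp9, Gp6 and Treml1 each detected in a single library. The 4 genes tested did not share a direction. Log2 fold changes were 0.36 for Gp1bb and 0.44 for Pf4, but -1.28 for Itga2b and -1.69 for Ppbp, and 0 of the 4 passed.

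Pdgfc encodes a latent ligand of PDGFRα and had the largest fitted difference of the family. Its level was 20.2, 32.1 and 23.8 CPM in the knockout libraries and 44.0, 28.1 and 32.5 CPM in the controls. M2626 and M2628 were below all controls, and M2627 fell within the control range. The means were 25.4 ± 6.14 and 34.9 ± 8.19 CPM (SD, n = 3), a log2 fold change of -0.45 (SE 0.263, 95% interval -1.01 to 0.12, adjusted p = 0.813). With 1 library left out, its log2 fold change ranged from -0.67 without M2627 (unadjusted p = 0.0429, adjusted p = 0.857 by the same edgeR test) to -0.24 without M2629 (unadjusted p = 0.424). This gene carries the 8-letter match of miR-26b-3p shown above and had the lower mean in the knockouts. It lies at chr3:81036416-81214040 on the plus strand and shares 147 exonic bases with Gm16000 on the minus strand, whose counts reached 11.9% of those of Pdgfc.

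Pdgfd encodes the latent ligand of PDGFRβ and was the most abundant ligand gene. It had 196, 182 and 197 CPM in the knockout libraries against 226, 207 and 172 CPM in the controls, so the knockouts fell inside the control range. The means were 191 ± 8.59 and 201 ± 27.5 CPM (SD, n = 3), a log2 fold change of -0.07 (SE 0.149, 95% interval -0.39 to 0.24, adjusted p = 0.969). The interval spans 0.762-fold to 1.18-fold. Pdgfd is at chr9:6168584-6378850 on the plus strand and holds a 7-letter match of miR-26b-5p.

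**Figure D2:**
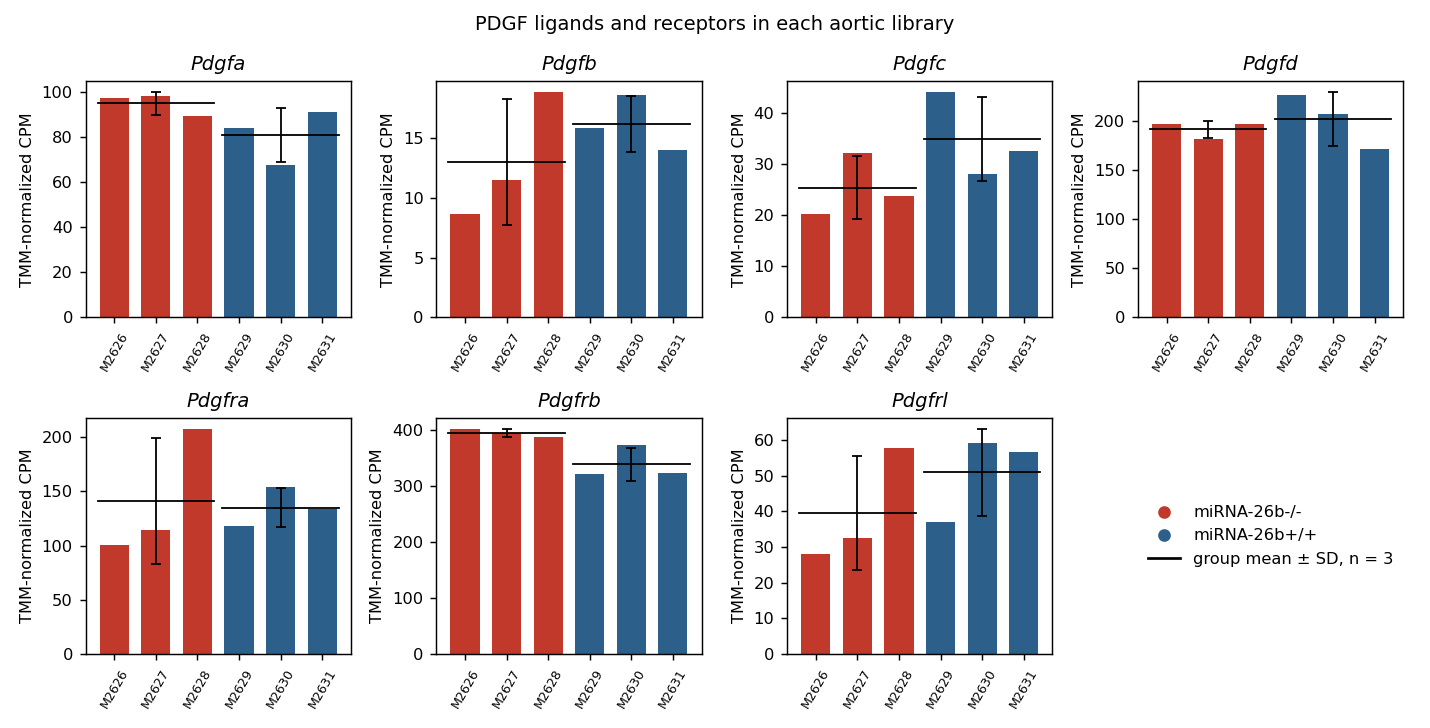
Level of each PDGF gene in each aortic library as TMM-normalized CPM, on axes that start at 0, with bars in red for miRNA-26b-/- and in blue for miRNA-26b+/+, and black lines at the group mean ± SD (n = 3). M2628 is the highest bar for Pdgfb and Pdgfra, and the groups do not overlap for Pdgfrb.

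Pdgfra encodes PDGFRα, the receptor kinase of fibroblasts and other mesenchymal cells. Its level was 101, 114 and 207 CPM in the knockout libraries and 118, 154 and 133 CPM in the controls. M2626 and M2627 were below every control and M2628 was far above them. The means were 141 ± 58.0 and 135 ± 17.8 CPM (SD, n = 3), a log2 fold change of 0.06 (SE 0.23, 95% interval -0.43 to 0.55, adjusted p = 0.989). Without M2628 the log2 fold change was -0.32 (unadjusted p = 0.078, adjusted p = 0.531 by edgeR), and without the control M2629 it was -0.03. The gene lies at chr5:75152292-75198215 on the plus strand and holds 2 matches of 7 letters of miR-26b-5p. Of the annotated genes that share exonic bases with it, Mir7025 had at most 1.29% of its counts, and Gm42802 and Gm42803 had 0 counts.

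The summed level of 9 fibroblast markers was also highest in M2628. It was 11149, 12424 and 18773 CPM in the knockouts and 12096, 12590 and 14273 CPM in the controls, and 0 of the 9 genes passed an unadjusted p of 0.05. The leading markers were Col1a2, a collagen chain, and Gsn, gelsolin, with means of 4807 and 3052 CPM in knockouts and 4333 and 3160 CPM in controls. As a share of the fibroblast sum in TPM, Pdgfra was 0.449%, 0.452% and 0.560% in the knockouts and 0.468%, 0.590% and 0.450% in the controls. The shares overlapped (log2 difference -0.04, two-sided exact permutation p = 0.6), and M2628 no longer stood above the controls.

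Pdgfrb encodes PDGFRβ, the receptor kinase of smooth muscle cells and pericytes, and was the most abundant member. Its level was 402, 396 and 387 CPM in the knockout libraries and 322, 374 and 324 CPM in the controls. Every knockout library was above every control, with M2630 the control closest to them. The means were 395 ± 7.40 and 339.8 ± 29.4 CPM (SD, n = 3). The log2 fold change of 0.22 (SE 0.13, 95% interval -0.06 to 0.50) did not pass the test (unadjusted p = 0.115, adjusted p = 0.820). Groups without overlap and higher in knockouts were seen for 5.65% of all genes tested, and without overlap in either direction for 11.5%. On the TPM scale the groups did overlap, since M2630 (220.3 TPM) was above M2626 (219.95 TPM). Pdgfrb is at chr18:61045150-61085061 on the plus strand.

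Over the 6 libraries, smooth muscle markers were not ordered like Pdgfrb, though both fell from M2626 to M2627 to M2628. The 8 genes, led by Acta2 and Myh11 of the contractile apparatus, summed to 41000, 36577 and 32583 CPM in knockouts and 35529, 36733 and 43607 CPM in controls, with 0 of 8 at an unadjusted p under 0.05. Pdgfrb amounted to 0.502%, 0.565% and 0.612% of this sum in TPM in the knockouts and 0.469%, 0.536% and 0.395% in the controls, which overlapped (log2 difference 0.27, two-sided exact permutation p = 0.2, and 0.15 without M2631). The pericyte list, led by Rgs5 and Cspg4, summed to 3535, 2967 and 3063 CPM in knockouts and 3860, 3507 and 3886 CPM in controls, and 0 of the 5 genes tested passed. Limma voom gave 1 lower, as did edgeR without M2626 or without M2629. Of the 5 genes, 4 had a negative log2 fold change. The groups did not overlap for 2, Abcc9 and Cspg4, both lower in the knockouts, against 11.5% of all genes in either direction.

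**Figure D3:**
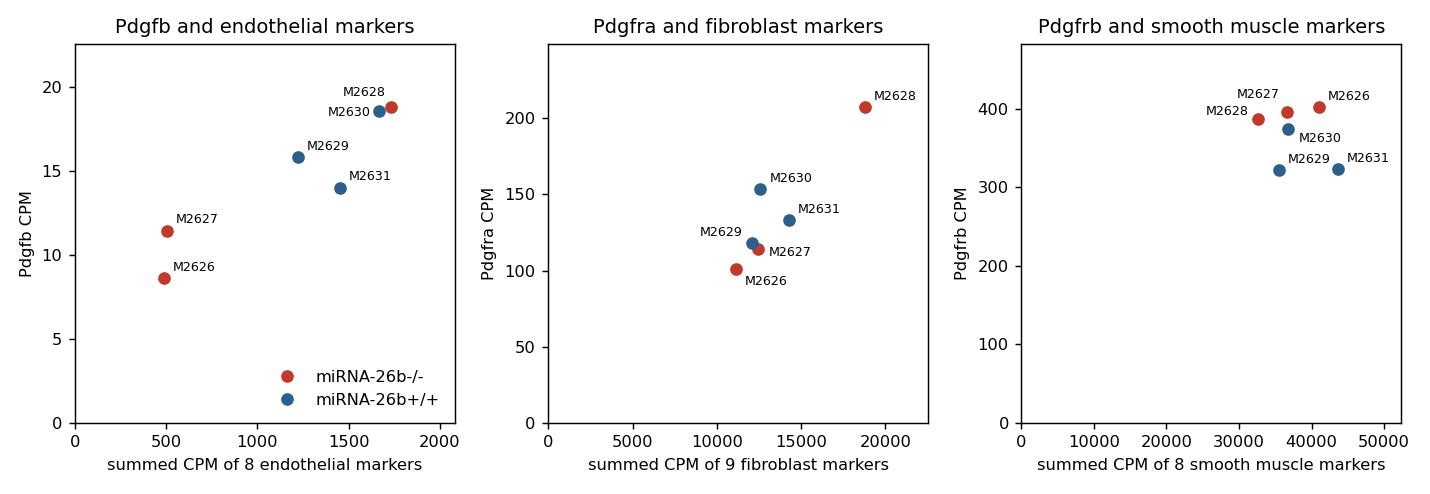
Level of Pdgfb, Pdgfra and Pdgfrb in CPM against the summed CPM of endothelial, fibroblast and smooth muscle markers, with 1 labelled point per library (red miRNA-26b-/-, blue miRNA-26b+/+). M2626 and M2627 lie low in Pdgfb (8.60 and 11.4 CPM) and in endothelial markers (487 and 504 CPM), and M2628 lies high in Pdgfra and fibroblast markers. Over the 6 libraries Pdgfrb is not ordered like the smooth muscle markers, though both fall from M2626 to M2627 to M2628.

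Pdgfrl, the kinase-less receptor-like gene, had 28.2, 32.4 and 57.7 CPM in the knockout libraries and 36.9, 59.2 and 56.6 CPM in the controls. As for Pdgfb and Pdgfra, M2626 and M2627 were below every control while M2628 was not. The means were 39.4 ± 16.0 and 50.9 ± 12.2 CPM (SD, n = 3), a log2 fold change of -0.36 (SE 0.274, 95% interval -0.95 to 0.22, adjusted p = 0.869). Without M2628 it was -0.73, with an unadjusted p of 0.0103 and an adjusted p of 0.274 by the same edgeR test. It shrank to -0.19 without M2626 (unadjusted p = 0.524), -0.23 without M2627 and -0.24 without M2630. The gene is at chr8:40926212-40990785 on the plus strand.

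Pdgfrl and Pdgfra ranked differently in the genotypes, a pattern chosen after its values were seen and therefore not tested. The TPM ratio of Pdgfra to Pdgfrl was 1.12, 1.10 and 1.12 in the knockouts and 0.997, 0.809 and 0.736 in the controls. Every knockout library was above every control, and the ratio of M2629 was nearly 1. The ratio of the receptor kinases, Pdgfra to Pdgfrb, was 0.137, 0.158 and 0.292 in knockouts and 0.200, 0.225 and 0.225 in controls (log2 difference -0.23, two-sided exact permutation p = 0.6). That difference ranged from -0.0095 without M2626 to -0.56 without M2628. Summed ligand TPM exceeded summed receptor TPM in all 6 libraries, by 1.19, 1.18 and 1.10 times in knockouts and 1.58, 1.16 and 1.29 times in controls (log2 difference -0.21, two-sided exact permutation p = 0.3), and without M2629 the difference was -0.0882.

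**Figure D4:**
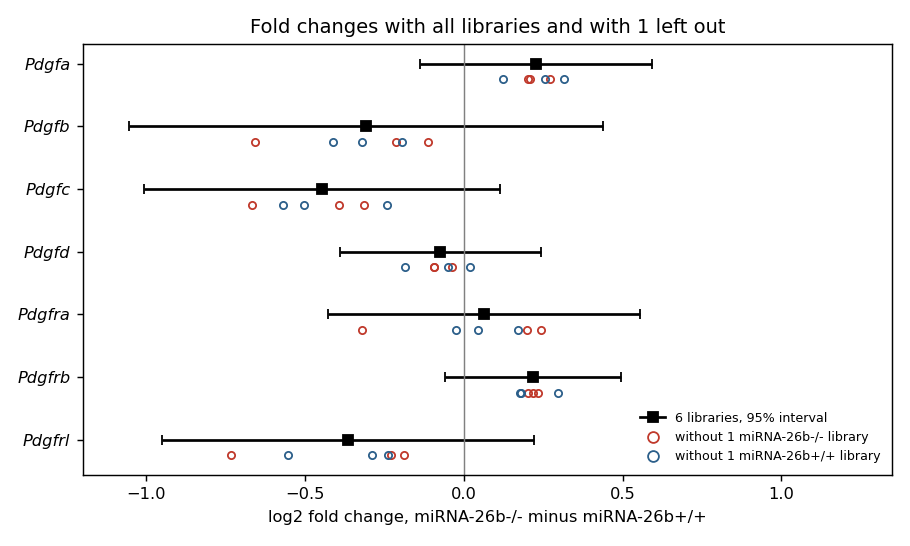
Log2 fold change of each PDGF gene, miRNA-26b-/- minus miRNA-26b+/+, with all 6 libraries (black squares, bars for the 95% interval) and with 1 library left out (open circles, red for a left-out knockout and blue for a left-out control). All 7 intervals cross 0, and the circle at -0.32 for Pdgfra is the fit without M2628.

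The knockout libraries differed among themselves more for some members than for others. The coefficient of variation within the knockouts was 40.6% for Pdgfb, 41.2% for Pdgfra and 40.5% for Pdgfrl, and 1.87% for Pdgfrb, 4.49% for Pdgfd and 5.19% for Pdgfa. In the controls it lay between 8.66% for Pdgfrb and 23.9% for Pdgfrl. In the library with the fewest counts, counting error alone corresponds to 6.74% for Pdgfb, the member with the fewest reads (220 to 530 counts), and 1.01% for Pdgfrb (9781 to 13267 counts). The part that tissue composition has in this spread was not tested. Beside the endothelial and fibroblast lists, the 8 macrophage markers summed to 240, 278 and 613 CPM in knockouts and 394, 432 and 418 CPM in controls, with Mertk and C1qb the most abundant. With all libraries 0 of 8 passed, and without M2628 6 of 8 were lower at an unadjusted p under 0.05 and 1 at an adjusted p under 0.05. That edgeR fit called 10.8% of all genes (5.77% lower) at the unadjusted threshold and 0.524% at the adjusted one. With any other library left out 0 of 8 were lower, and 1 was higher without M2627.

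Other cell types divided the libraries in other ways. Schwann cell markers were higher in the knockouts for 7 of 8 genes at an unadjusted p under 0.05 (526, 506 and 372 CPM in sum against 252, 260 and 319 CPM), led by Pmp22. Skeletal muscle markers were higher for 5 of 6 genes (27.6, 85.9 and 8.40 CPM against 6.50, 11.2 and 2.18 CPM), led by Ckm and Acta1. Of these 2 leading genes, Ckm did not pass. Mylpf, Myh4 and Myh1 had 0 CPM in every control and Tnnt3 at most 0.0662 CPM. These genes entered the test only through the knockouts, so the filter fixed their direction and their number carries no weight. Sympathetic neuron markers were higher for 3 of 7 genes tested, led by Slc6a2 and Stmn2, with 352 CPM in M2627 and 20.9 to 65.2 CPM elsewhere. Without M2627 the sympathetic list gave 0 higher and 1 lower of 5 genes, and with all libraries DESeq2 gave 1 higher and limma voom 0. With 1 library left out, 4 to 7 Schwann cell markers were higher, and limma voom gave 5. For the skeletal muscle list these counts were 2 to 6 and 2, and the filter bears on them in the same way. For comparison, 3.40% of all genes tested were higher and 3.07% lower at that threshold. Adipocyte markers (Fabp4 and Cidec highest) ranged from 545 to 1877 CPM in knockouts and 468 to 1338 CPM in controls. Cardiac muscle markers (Myh6 and Actc1 highest) reached 350.04 CPM in M2627 and 301 CPM in M2630. Neither list had a gene that passed with all libraries. Without M2627, 4 of 5 cardiac markers were lower, in a fit that called 5.76% of all genes, and 2 adipocyte markers were higher without M2628 and 1 without M2630. With all libraries no gene of any marker list had an adjusted p under 0.05 in edgeR or limma voom, and DESeq2 gave 2, both of the skeletal muscle list. Without M2628 edgeR gave 3 endothelial, 1 macrophage, 2 Schwann cell and 2 skeletal muscle markers at that threshold, in a fit that called 0.524% of all genes. The skeletal muscle counts carry no weight here either, because of the filter. Pdgfrb, the member whose groups did not overlap, and the Schwann cell sum were both higher in every knockout library than in every control. The platelet sum was too, though only by 35.475 against 35.185 CPM for its lowest knockout and highest control. So was the sum of the 36 genes that carry the PDGF receptor signal, treated below (2758 to 2890 CPM against 2704.9 to 2728.7 CPM). Among the controls, Pdgfrb was highest in M2630 and the Schwann cell sum in M2631. The part of any of these cells in the level of Pdgfrb was not tested.

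The genes that act with the PDGF receptors were followed by role, from activation of the ligands to the transcripts that PDGF induces in cultured cells. None of the 5 lists held a gene with an adjusted p under 0.05 in edgeR, DESeq2 or limma voom. At the unadjusted threshold, 2 of the 75 genes tested were higher and 2 were lower by each of these tools, which is 5.33% against 6.47% of all genes and so no more than the background. Without M2628 the edgeR count was 1 higher and 9 lower of 74 genes, or 13.5%, in a fit that called 10.8% of all genes (5.03% higher and 5.77% lower).

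Of the 8 genes that activate PDGF ligands or bind them or their receptors, 1 was higher and 0 were lower, with a median log2 fold change of -0.03. The gene was Sparc, a secreted matrix protein that binds PDGF-B. It had 4817, 4717 and 5991 CPM in knockouts and 3821, 3590 and 4242 CPM in controls without overlap between the groups, a log2 fold change of 0.41 (SE 0.129, unadjusted p = 0.00594, adjusted p = 0.734). The other abundant members were Lrp1, an endocytic co-receptor of PDGFRβ, with a log2 fold change of -0.28 (SE 0.171, adjusted p = 0.831), and Furin, a proprotein convertase that processes PDGF ligands, with -0.24 (SE 0.161, adjusted p = 0.857). Plat and Plau, the plasminogen activators that cut PDGF-C and PDGF-D, passed at neither threshold. Plat was the other of the 8 genes without overlap between the groups, and it was lower in the knockouts. It had 93.0, 91.2 and 92.9 CPM in knockouts and 99.0, 101 and 115 CPM in controls. Of all genes tested, 11.5% had groups without overlap in either direction.

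Among adaptors, kinases and transcription factors that carry the receptor signal, 35 of 36 genes were tested, since Grb7 had too few reads. Of these, 1 was higher and 0 were lower, with a median log2 fold change of 0.03. The gene was Hras, a RAS GTPase, at 59.7, 41.0 and 64.1 CPM in knockouts and 43.5, 32.6 and 34.0 CPM in controls (log2 fold change 0.57, SE 0.228, unadjusted p = 0.0252, adjusted p = 0.736). Its groups overlapped, as M2627 lay below M2629. Among the most abundant genes were Akt1, a kinase of cell survival (log2 fold change 0.03), and Pik3r1, the regulatory subunit of the phosphoinositide kinase (0.11), neither of which passed.

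Among 14 genes that attenuate the receptors, 0 were higher and 1 was lower, with a median log2 fold change of -0.005. Ptprj, a receptor tyrosine phosphatase that dephosphorylates PDGFRβ, had 53.4, 71.4 and 107 CPM in knockouts and 90.5, 139 and 172 CPM in controls. Its groups overlapped through M2628, and its log2 fold change was -0.79 (SE 0.254, unadjusted p = 0.00734, adjusted p = 0.736). The phosphatase Ptpn11, with a log2 fold change of 0.12, was more abundant and did not pass.

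Of 11 genes that PDGF induces in cultured cells, 0 were higher and 1 was lower, with a median log2 fold change of -0.26. Junb, an AP-1 transcription factor, had 26.4, 27.7 and 58.3 CPM in knockouts and 58.0, 85.3 and 52.5 CPM in controls (log2 fold change -0.80, SE 0.289, unadjusted p = 0.0145, adjusted p = 0.736). M2628 lay among the controls, and without it the log2 fold change was -1.26 (adjusted p = 0.0319 by edgeR). That edgeR fit gave 82 genes at the adjusted threshold of 0.05, against 1 with all libraries. Over 14 alternative settings the log2 fold change of Junb ranged from -1.26 to -0.56. Junb passed the unadjusted threshold in 11 of them, and not without M2626, M2627 or M2630. The early response genes Egr1 (log2 fold change -0.22), Jun (0.14) and Fos (0.26) were the most abundant and did not pass. Their levels varied widely between controls, with 63.1 to 205 CPM for Fos.

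The class III receptor kinases related to the PDGF receptors, and their ligands, gave 0 of 7 genes past the threshold in either direction. All 7 fitted log2 fold changes were negative, with a median of -0.19, whereas 51.4% of all genes tested had a positive one. The scarcest were Il34 and Flt3, with means of 1.39 and 0.295 CPM in knockouts and 2.37 and 1.59 CPM in controls. The most abundant were Csf1, the macrophage growth factor, with -0.14 (SE 0.198), its receptor Csf1r with -0.31 (SE 0.285), and Kitl, the ligand of KIT, with -0.05 (SE 0.246).

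**Figure D5:**
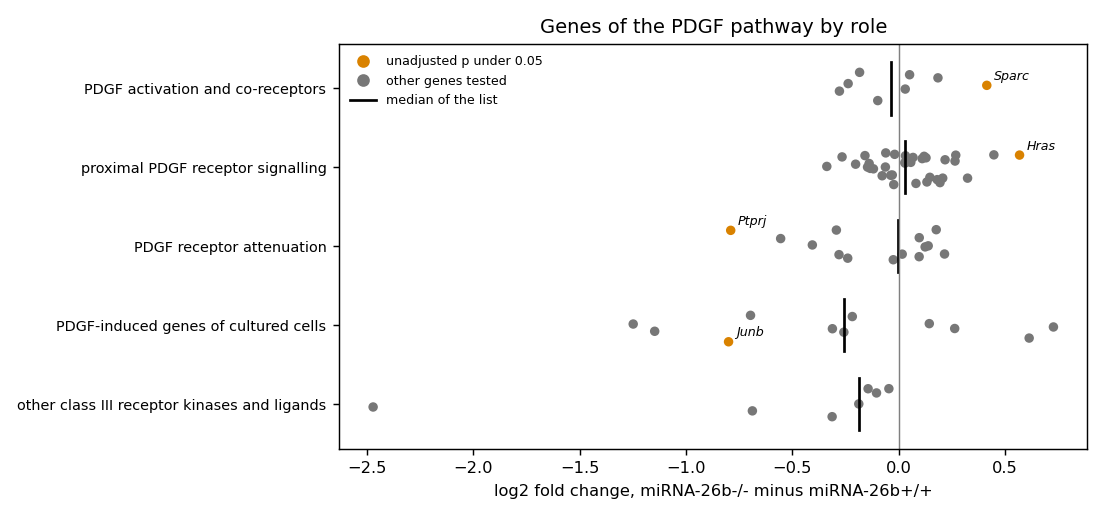
Log2 fold change, miRNA-26b-/- minus miRNA-26b+/+, of each tested gene of the 5 PDGF pathway lists, with orange points for an unadjusted p under 0.05 and a black line at each list's median. Sparc and Hras lie right of 0 (0.41 and 0.57), Ptprj and Junb left of it (-0.79 and -0.80), and most other points lie close to 0.

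The last comparison asked which genes varied between the 6 libraries most like each member. Log2 CPM was correlated over 11680 genes with a mean of at least 5 CPM. The genes named were picked for the highest r over only 6 libraries, which also share differences in tissue composition, so the values describe a pattern and carry no p. Pdgfb was closest to Anpep, a membrane aminopeptidase (r = 0.998), and Fbxo38 (0.992). Pdgfra was closest to Hexa, a lysosomal enzyme subunit (0.991), and Gm26883 (0.988), and Pdgfrl to Lrp1 (0.995) and Hectd4 (0.988). Lrp1 is the PDGF co-receptor named above, and its 1062, 1176 and 1700.0 CPM in knockouts and 1316, 1712 and 1752 CPM in controls were low in M2626, M2627 and M2629 and high in the other libraries, as for Pdgfrl. Pdgfa went with 1110065P20Rik (0.995) and Acsbg1 (0.991), Pdgfc with Inpp5b (0.995) and Tmem101 (0.984), Pdgfd with Gm26643 (0.983) and Fancl (0.982), and Pdgfrb with Mydgf (0.985) and Selenok (0.981). Within the family, Pdgfb, Pdgfra and Pdgfrl varied together, with r of 0.841 for Pdgfb and Pdgfrl, 0.836 for Pdgfra and Pdgfrl and 0.825 for Pdgfb and Pdgfra. Pdgfc and Pdgfrb ran opposite ways (r = -0.778), as did Pdgfa and Pdgfb (-0.705), and the other pairs lay between -0.597 and 0.338.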

How the data were processed

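The authors aligned reads to GRCm38/mm10 with STAR and counted them per gene with featureCounts (Subread); the header of the table they deposited names featureCounts 1.6.4 and GENCODE M21, without strand and with reads allowed to count for every overlapping gene. The values are raw read counts, 25706728 to 33345037 per library. The deposited columns of the authors' own comparison (fold changes, p-values) were not used. Here, the filter required a summed count of 2 and, in 2 or more libraries, over 1 CPM. Genes were tested with edgeR 4.0.16 (TMM, quasi-likelihood test, Benjamini-Hochberg over all 16017 genes) in R 4.3.3, after a test on simulated data. CPM are TMM-normalized (factors 0.982 to 1.02), and TPM use the length column of the count table. Intervals are 95%. DESeq2 1.42.0 and limma 3.58.1 (voom) served as alternatives. Single values were compared by exact permutation of the samples.

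The members and gene lists were chosen with earlier results of these data known. Named by rule were the members, the genes of each pathway list with an unadjusted p under 0.05 and its 3 most abundant, the 2 most abundant of each marker list, and the 2 genes most correlated with each member; a few genes that this rule names are not reported here. Groups follow the genotype labels.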

Additional observations from a re-analysis of the deposited data

How the results depend on the processing

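With another scaling (library size, upper quartile, RLE), filter or test, or with 1 library left out, 94 of 98 refits of the members' log2 fold changes kept their sign, 4 changed it, and 0 reached an adjusted p under 0.05. Pdgfra changed sign with limma voom (-0.0018) and without M2628 (-0.32) or M2629 (-0.03), its range with 1 library left out being -0.32 to 0.24. Pdgfd turned to 0.0178 without M2629 (range -0.19 to 0.0178). Leaving out 1 library gave 0 to 1 members with an unadjusted p under 0.05, the 1 being Pdgfc without M2627 and Pdgfrl without M2628. The log2 difference of Pdgfra relative to fibroblast markers ranged from -0.15 to 0.0764, and it changed sign without M2626, M2627 or M2630. The number of genes with an adjusted p under 0.05 was 1 by the main test, 57 by DESeq2, 3 by limma voom, 0 by edgeR's earlier quasi-likelihood method (802 genes at an unadjusted p under 0.05), and 0 to 82 with 1 library left out, being 82 without M2628. At an unadjusted p under 0.05 the number was 1036, and 686 (without M2631) to 1692 (without M2628) with 1 library left out. Sparc kept an unadjusted p under 0.05 in 14 of 14 alternatives, Ptprj in 13, Junb in 11 and Hras in 10. Depth limited Pdgfb most, with 220 counts in M2626. No paired analysis was possible because the labels give no replicate numbers, and those used here follow accession order and pair no animals.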
